A study of Mus musculus with 4 samples.

Results

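Colon tissue of C57BL/6 mice was sequenced in 4 libraries, and the comparison described here is the untreated pair: 1 library labelled Card9-/- against 1 wild-type (WT) library, both carrying the label day 0. The labels give no agent for the mice of either untreated library. The other 2 libraries, 1 WT and 1 labelled Card9-/-, belonged to an AOM/DSS model of inflammation-driven colon cancer, which joins the mutagen azoxymethane (10 mg/kg AOM) to 3 cycles of 7 days of the irritant dextran sulfate sodium (2% DSS in the water, begun 5 days after AOM), and were taken at day 100. They are used only to show where values of the untreated pair recur. The genes described were the 15352 of 44788 in the table that reached at least 50 raw counts in the higher of the 2 untreated libraries. Whether a library holds 1 mouse or a pool, the age of the mice, and the stretch of colon that was cut were not given. Xist, which is transcribed from the inactive X chromosome of females, had 20652 counts in untreated WT and 16036 in the untreated labelled library. No group has a replicate, so every difference below compares 2 libraries, and every interval covers counting error only.

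Card9 encodes an adaptor protein of myeloid cells. C-type lectin receptors that bind fungal cell walls signal through the kinases Syk and Prkcd to a complex of Card9, Bcl10 and Malt1, which switches on NF-kB and cytokines such as those that drive interleukin 22 in the gut. The colon itself is not uniform: Hox genes are switched on along the body axis in the order in which they lie in their clusters, with the highest-numbered genes on at the tail end, and absorptive enzymes, ion transporters and mucus proteins also differ along its length. A piece of colon wall can further carry attached fat and lymphoid follicles.

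Counts were scaled to CPM, counts per fixed library size, with trimmed-mean (TMM) factors over the 4 libraries. CPM does not correct for gene length, so it is compared here only between libraries for the same gene. Differences are log2 ratios on the log2(CPM + 1) scale, labelled knockout over WT, and folds are ratios of CPM with their exact 95% counting interval. A gene or list member is called higher or lower below when its log2 ratio reached 1 or -1, a size rule and not a test. The WT and labelled libraries held 25422042 and 23332004 counts, and 5.20% and 7.11% of these fell on the ribosomal RNA gene Rn18s-rs5. Colon epithelium was present in both: all 7 pan-epithelial genes, among them Epcam, Vil1, Krt8 and Cdh1, lay within the size rule, with a median log2 ratio of 0.12 and a summed level of 10430 CPM in WT and 12048 CPM in the labelled library.

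Card9 did not go with its label. The WT library had 44 Card9 counts (1.75 CPM) and the library labelled knockout had 69 (3.18 CPM), 1.82-fold more (interval 1.23 to 2.72). In the AOM/DSS pair the counts were 116 in WT and 245 in the labelled library, so Card9 was higher under the label in either pair. A deletion can leave transcript outside the removed exons, and gene-level counts do not show which part of Card9 (chromosome 2, 26352187 to 26360945 in GRCm38) was read. The samples are therefore called by their label only, and no direction below can be read as an effect of losing Card9.

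The partners of Card9 differed little. Of 19 measured members of its signalling list, Card9 itself included, 1 was higher and 0 were lower. Over all genes 4.46% were higher and 3.37% lower. The list had a median log2 ratio of 0.34 beside -0.01 over all genes. The member past the size rule was Card14, a relative of Card9 found in epithelium, at 13.5 CPM in WT and 29.6 CPM in the labelled library (2.20-fold, interval 1.92 to 2.51). Short of it stood the exchange factor Vav1 (log2 ratio 0.75), the kinase Prkcd (0.63), the phospholipase Plcg2 (0.53) and the kinase Syk (0.43), while Bcl10 (0.38) and Malt1 (-0.17) lay nearer 0. Nod2, a sensor of bacterial wall fragments, was the member farthest below 0 at -0.52.

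Among the lectin receptors upstream, Clec7a (dectin-1) had 109 and 99 counts and Clec4n (dectin-2) 100 and 79, so neither differed beyond its counting interval. Of 8 measured receptors and adaptors in that list 1 was lower: Clec10a, a lectin of macrophages and dendritic cells, with 106 counts in WT and 24 in the labelled library. Downstream cytokines were too low to compare. Il17a and Il22 were at 0 counts in both libraries, where 0 counts allow up to 3. Of 10 measured genes of the interleukin 17 and 22 axis 3 were higher and 0 lower. Among the higher were the chemokine gene Ccl20 (24 and 112 counts) and its receptor gene Ccr6 (23 and 81). The median log2 ratio of this list was 0.75, with 9 of the 10 above 0. That median was 0.28 without the count minimum and 0.46 with at least 200 counts.

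Over all 15352 genes, 685 (4.46%) were higher and 517 (3.37%) lower in the library labelled knockout, 7.83% in either direction. The higher genes made up 57.0% of those called, and 48.1% when library totals alone set the scale. The genes nearest the limit were Rfxank just inside (log2 ratio 1.0001) and Gyltl1b just outside (0.9993) among the higher, and Ccl9 (-1.0005) and Apol7a (-0.9998) among the lower. In the scatter of the 2 libraries, positional factors, epithelial products and fat genes are among the points farthest from the diagonal, as are Ly6g and Gpr17. Lists of B cell and interferon genes, with smaller ratios, are described after them.

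**Figure D1:**
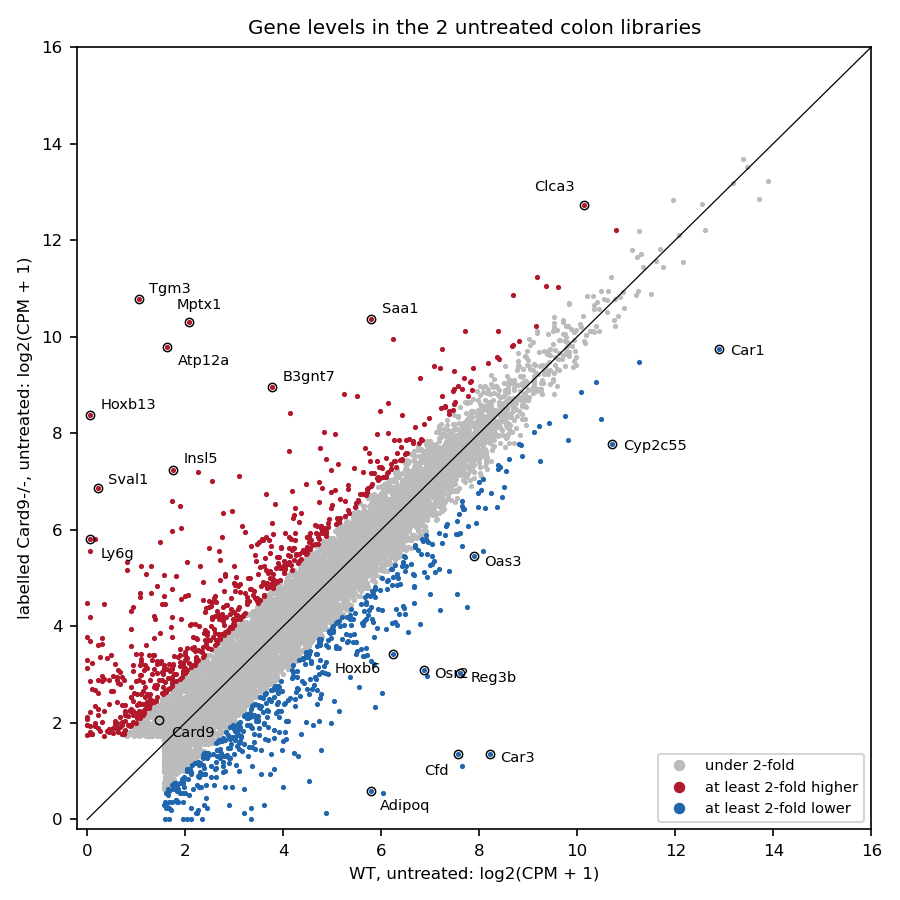
Level of each of the 15352 genes in the untreated WT library (x axis) and the untreated library labelled Card9-/- (y axis), both as log2(CPM + 1), with the diagonal of equal levels; red marks the 685 genes at least 2-fold higher, blue the 517 at least 2-fold lower, grey the rest, and circles the named genes. Tgm3, Mptx1 and Hoxb13 lie far above the diagonal, Car3, Cfd and Adipoq far below it, and Card9 slightly above it.

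The AOM/DSS pair shares no library with the untreated pair, apart from the scaling. Of the 685 higher genes, 118 (17.2%) were also higher under the label after AOM/DSS and 137 (20.0%) were lower there; the 118 were 8.32% of the genes higher in that pair. Of the 517 lower genes, 236 (45.7%) were lower again and 99 were higher, and the 236 were 12.2% of the genes lower in that pair. For comparison, 9.24% and 12.6% of all the genes were higher and lower in the AOM/DSS pair.

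The Hox genes separated the libraries by position within the clusters. Hoxb13, which marks the tail end of the gut, had 1 count in untreated WT and 7163 in the untreated labelled library, and 1 and 3438 in the AOM/DSS pair. Hoxd13 had 0 and 276 counts, at least 107-fold more, and Hoxa13 had 33 and 719 counts, 25.3-fold more (interval 17.8 to 37.0). After AOM/DSS, Hoxd13 had 1 and 2758 counts and Hoxa13 had 15 and 396. These last genes of the a, b and d clusters were therefore low in either WT library and high in either labelled library.

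The lower-numbered genes of the b, c and d clusters went the other way. Of the 9 measured Hoxb genes, 7 were lower, Hoxb2 to Hoxb8, with log2 ratios from -1.05 to -2.98. Hoxb6 had 75.1 CPM in WT and 9.76 CPM in the labelled library (7.69-fold lower, interval 6.67 to 8.91), and Hoxb8 had 30.4 and 2.99 CPM (10.2-fold lower, interval 7.88 to 13.3). Hoxb9, next in line, had 80.3 and 46.2 CPM and stayed within the size rule at -0.79. Of 7 measured Hoxd genes, 6 were lower (Hoxd3, Hoxd4, Hoxd8, Hoxd9, Hoxd10 and Hoxd11), and Hoxd4 had 493 counts in WT and 52 in the labelled library. Hoxc6, the single Hoxc gene past the count minimum, had 85 counts in WT and 0 in the labelled library, at least 24.4-fold lower. The cluster medians were -2.00 for Hoxb and -2.10 for Hoxd.

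The Hoxa cluster did not divide in this way. Of its 9 measured genes 7 were higher and 0 lower, with a median log2 ratio of 1.51: Hoxa3, Hoxa5, Hoxa6, Hoxa7, Hoxa9 and Hoxa10 had ratios from 1.08 to 1.90, and Hoxa13 stood apart at 3.88. Hoxa11os, a transcript antisense to Hoxa11, had 7.58 CPM in WT and 138 CPM in the labelled library, while Hoxa11 itself had a ratio of 0.77; the handling of strand is not given, so reads of the pair cannot be told apart. As a list, the 13 measured anterior Hox genes had a median of -1.85 (3 higher, 9 lower), and the 10 posterior ones 1.23 (5 higher, 3 lower), or 0.24 for the latter without the count minimum.

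**Figure D2:**
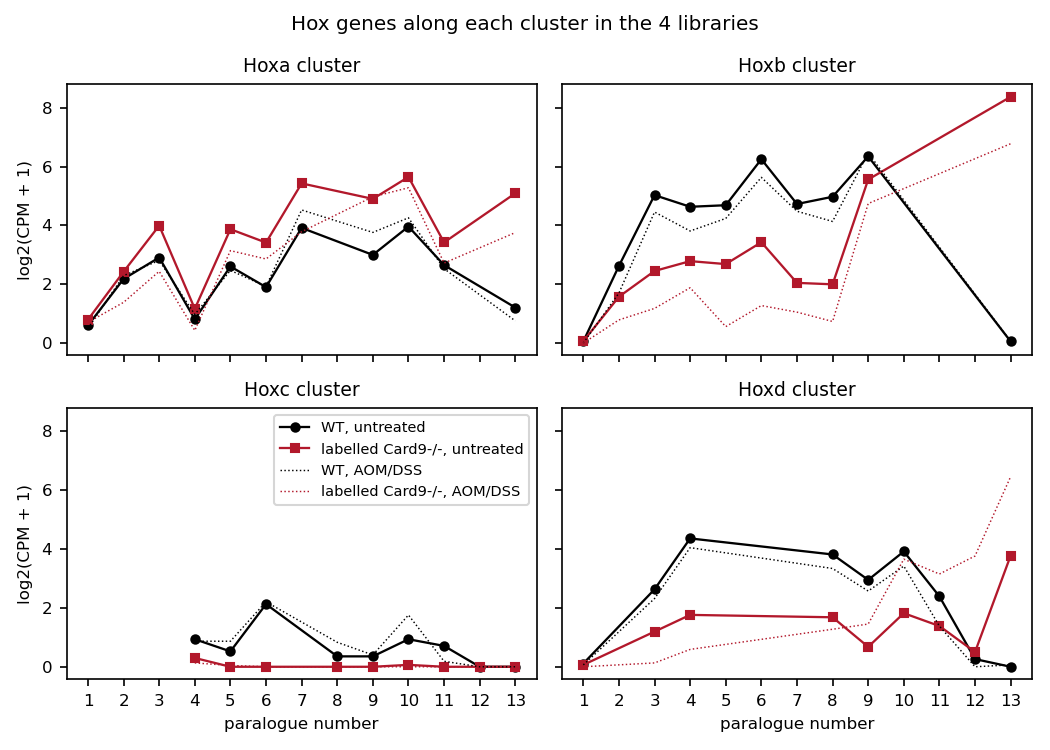
Hox genes by paralogue number (x axis) in each cluster, as log2(CPM + 1) (y axis), in untreated WT (black, circles), untreated labelled Card9-/- (red, squares) and the AOM/DSS libraries (dotted, same colours); levels are to be compared between libraries at the same gene, not along a line. In the b and d clusters the red line lies below the black one at the lower-numbered genes and above it at gene 13, while in the a cluster it lies above throughout.

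Other position factors gave the same split of libraries for some genes and no split for others. Osr2, a zinc finger factor, had 116 CPM in WT and 7.55 CPM in the labelled library (15.3-fold lower, interval 13.1 to 18.1), and 1905 and 12 counts in the AOM/DSS pair. Isl1 was higher, with 13 and 65 counts. Cdx1 (log2 ratio 0.44) and Cdx2 (-0.84), which keep intestinal identity, stayed within the size rule. Of 9 measured genes listed for the distal colon 6 were higher and 2 lower, with a median of 2.92. Car1 (log2 ratio -3.16) was among the 2 lower. Its level, given below, made up nearly all of the summed distal level in WT and most of it in the labelled library. That sum went the other way from the median. It was 7716 CPM in WT and 1554 CPM in the labelled library. Of 12 genes listed for the proximal colon 4 were higher and 5 lower, with a median of -0.49 and sums of 5224 and 2306 CPM. Both lists hold Hox genes already named, and the distal list also counts Ly6g, described below, among its higher genes. The sampled stretch of colon, which the Hox genes mark, and the labelled genotype cannot be told apart in this pair.

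Several epithelial genes were among the highest ratios, along with Hoxb13. Tgm3, a transglutaminase that cross-links proteins, had 27 counts (1.07 CPM) in WT and 38036 (1751 CPM) in the labelled library. Mptx1, a pentraxin of the gut mucosa, had 3.25 and 1272 CPM (391-fold, interval 315 to 492), and Atp12a, the catalytic subunit of the colonic proton-potassium pump, 2.10 and 886 CPM (421-fold, interval 322 to 563). All 3 were close to absent in WT and among the abundant transcripts of the labelled library. In the AOM/DSS pair they were again higher under the label, with 41 and 795 counts for Tgm3, 42 and 2172 for Mptx1, and 56 and 7134 for Atp12a.

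Behind them came other genes that WT nearly lacked. Sval1, a seminal vesicle antigen-like protein, had 4 and 2517 counts, the sialyltransferase gene St8sia5 had 1 and 1004, and Fxyd4, a regulator of the sodium pump, had 0 and 463, at least 179-fold more. Trpv3, a heat-gated cation channel, had 19 and 859 counts, and Insl5, a hormone of enteroendocrine cells, 60 and 3276. The glycosyltransferase gene B3gnt7 had 12.7 and 495 CPM and the protease inhibitor Spink3 3.77 and 145 CPM. In the AOM/DSS pair Trpv3 and Fxyd4 were higher under the label again, whereas Insl5 had 60 counts in WT and 18 in the labelled library.

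Ly6g, best known as a surface marker of neutrophils and also on the distal colon list above, had 1 count in WT and 1189 in the labelled library. The other neutrophil genes did not accompany it: S100a8 had 1 and 2 counts, S100a9 had 7 and 13, Cxcr2 had 2 and 1, and Mpo and Ngp were at 0 in both. Of 15 neutrophil genes listed, 3 passed the count minimum: Ly6g, Csf3r (log2 ratio 0.50) and Mmp9 (-1.95).

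Several ion and water transporters of mature colonocytes were higher in the labelled library. The anion exchanger Slc26a3 had 134 CPM in WT and 674 CPM in the labelled library (5.03-fold, interval 4.85 to 5.22), the water channel Aqp8 had 37.0 and 448 CPM (12.1-fold, interval 11.3 to 12.9), and the membrane-bound carbonic anhydrase Car4 had 209 and 1103 CPM (5.28-fold, interval 5.13 to 5.44). The phosphate carrier Slc20a1 (log2 ratio 2.50), the monocarboxylate carrier Slc5a8 (1.34) and the epithelial sodium channel subunits Scnn1a (1.34) and Scnn1g (1.94) were higher too, whereas the subunit Scnn1b (-0.57) was within the size rule. Of 20 measured colonocyte genes 9 were higher and 2 lower, with a median of 0.62, and after AOM/DSS 0 of them were higher and 16 lower under the label. Aqp4, a second water channel, had 44.7 and 433 CPM.

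Other epithelial genes were lower in the labelled library. Car1, a cytosolic carbonic anhydrase, had 7654 CPM in WT and 857 CPM in the labelled library (8.93-fold lower, interval 8.80 to 9.06). Cyp2c55, a cytochrome P450 of colonic epithelium, had 1684 and 218 CPM (7.73-fold lower, interval 7.50 to 7.97). The glycosyltransferase gene B4galnt2 had 1336 and 531 CPM, and the membrane protein gene Emp1 1075 and 463 CPM. In the AOM/DSS pair all 4 were lower under the label again, with 115880 and 900 counts for Car1 and 11623 and 7 for Cyp2c55.

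Related enzymes therefore lay on opposite sides. Of 12 carbonic anhydrases measured, 1 was higher (Car4) and 5 were lower, among them Car8 (log2 ratio -1.90) and Car12 (-1.45). Of 6 Cyp2c genes 3 were lower, Cyp2c55, Cyp2c65 (-2.51) and Cyp2c66 (-2.55), and 3 were higher, with Cyp2c68 at 29 and 799 counts. Of 8 Cyp2d genes 6 were higher and 0 lower, from Cyp2d11 (2.45) to Cyp2d12, which had 2.70 and 89.3 CPM. Members of such families share sequence, and reads may have been divided among near-identical copies. These 3 families were chosen for description after their values were seen.

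Of 18 measured genes of drug metabolism 0 were higher and 7 lower, with a median of -0.87. The lower ones include Cyp2c55, Cyp2c65 and Cyp2c66, already named above. The bilirubin glucuronosyltransferase gene Ugt1a1 (-1.25) and the carboxylesterase gene Ces1f (-1.67) were also among the lower. Absorptive genes better known from the small intestine or the upper colon were divided as well. The bile acid carriers Slc10a2 (64.1 and 5.11 CPM) and Slc51a (215 and 20.0 CPM), the vitamin B12 receptor gene Cubn (26.4 and 1.70 CPM), the sugar-splitting enzyme gene Sis (554 and 16 counts) and the manganese exporter gene Slc30a10 (121 and 6.81 CPM) were lower. The peptide carrier gene Slc15a1 (2.34 and 96.3 CPM) and the retinol-binding protein gene Rbp2 (57 and 322 counts) were higher. Fabp2, a fatty acid carrier of absorptive cells, did not differ by the size rule (-0.08).

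Mucus genes were higher in part. Clca3, a secreted protein of goblet cells, had 1120 CPM in WT and 6741 CPM in the labelled library (6.02-fold, interval 5.94 to 6.10). Zg16, a lectin of the mucus (log2 ratio 1.69), Fcgbp, a mucus scaffold (1.42), Retnlb, a resistin-like protein (2.61), and the trefoil peptide gene Tff3 (1.25) were also higher. Muc2, the main gel-forming mucin, was within the size rule at -0.84, as were the goblet cell factors Atoh1 (0.07) and Spdef (-0.73). Of 14 goblet cell genes 5 were thus higher and 0 lower, with a median of 0.30.

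Antimicrobial products were found on either side. Saa1, serum amyloid A, had 54.5 CPM in WT and 1318 CPM in the labelled library (24.2-fold, interval 22.9 to 25.6), and its close copy Saa2 had 19 and 759 counts, but Saa3 had 474 and 119. The ribonuclease gene Ang4 had 122 and 2763 counts and the inducible nitric oxide synthase gene Nos2 had 45 and 184. The lectins Reg3b (194 and 7.13 CPM, 27.3-fold lower, interval 23.2 to 32.2) and Reg3g (34.4 and 3.77 CPM) were lower. Of 16 measured defence genes 9 were higher and 3 lower, with a median of 1.54, or 0.67 without the count minimum. In the AOM/DSS pair Reg3b was lower again (59043 and 3350 counts), while Saa1 had 5919 and 4347 counts. All Defa genes listed for Paneth cells were at 0 in both untreated libraries. The Paneth list had 4 measured genes, Ang4 among them, with 2 higher and 0 lower. Its median was 1.26, or 0.81 without the count minimum.

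Enteroendocrine genes were divided by hormone. Of 13 measured, 2 were higher, Insl5 and Pyy (320 and 1508 counts), and 5 were lower: the granule protein gene Chga (5005 and 2069), the serotonin enzyme gene Tph1 (1215 and 332), secretin Sct (866 and 232), neurotensin Nts (652 and 103) and the prohormone convertase Pcsk1 (977 and 261). Gcg, which gives the glucagon-like peptides, had 1837 and 2443 counts and stayed within the size rule.

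Fat cell genes had the lowest median of the 53 lists with a measured member. Of 16 measured members 0 were higher and 13 lower, with a median log2 ratio of -2.43, and the summed level of the list was 1274 CPM in WT and 304 CPM in the labelled library. Adipoq, which encodes adiponectin, had 1381 and 11 counts (108-fold lower, interval 60.3 to 217). The lipid droplet protein gene Plin1 had 709 and 2 counts, the fat cell protease gene Cfd 4746 and 34, and Car3, the carbonic anhydrase of fat and muscle, 7443 and 34. Leptin (Lep) had 95 and 3 counts. Lpl (2749 and 338 counts), Fabp4 (1948 and 349), Pparg (2998 and 1272) and Pnpla2 (3049 and 2857) differed less than Adipoq, Plin1, Cfd and Car3. Lpl, Fabp4, Pparg and Pnpla2 are also made outside fat cells, and whether that bears on their ratios was not tested.

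The same list was lower under the label after AOM/DSS, with 12 of its genes past the size rule and a median of -2.09, so that either WT library held more fat RNA than the labelled one beside it. Cyp2e1, a cytochrome P450 of liver and fat that was not on the list, had 1635 and 10 counts. In a bulk sample fewer cells of a type and less RNA per cell cannot be told apart, and neither can attached fat and the labelled genotype. Gpr17, an orphan receptor known from oligodendrocyte precursors, had a ratio as low as the fat genes, 5032 and 25 counts, but 34 and 25 counts in the AOM/DSS pair.

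Genes of other tissues around the colon were level, or too low to compare, in more of their members. Of 9 mesothelial genes 3 passed the minimum and 1 was lower, Muc16 (106 and 5 counts), while Upk3b and Bnc1 were at 0 in both untreated libraries and Wt1 had 4 and 0 counts. Of 14 pancreas genes 2 passed the minimum, Cela1 (653 and 4445 counts) and Clps (175 and 331), both higher, while the defining pancreatic enzyme genes Prss1 and Amy2a5 were at 0 in both libraries. Of 13 smooth muscle genes 2 were higher, Cnn1 (1.14) and Tagln (1.07), and 0 lower, with a median of -0.01. Of 15 genes of enteric neurons and glia 0 were higher and 1 lower, the neuropeptide gene Vip (-1.01), and all 15 lay below 0, with a median of -0.37. Fibroblast and matrix genes (14 measured, 0 higher, 0 lower) had a median of -0.20.

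B cell genes were higher in the labelled library. Of 16 measured 14 were higher and 0 lower, with a median log2 ratio of 2.19, and their summed level was 117 CPM in WT and 290 CPM in the labelled library. The complement receptor gene Cr2, also made by follicular dendritic cells, had 8 and 200 counts. The antigen receptor subunit gene Cd79b had 51 and 454 counts (10.3-fold, interval 7.72 to 14.1), the master regulator Pax5 22 and 240, and Ms4a1 (CD20) 16 and 145. The members outside the size rule were Blnk (0.34) and Ebf1 (-0.55), which other cells of the wall also express.

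Antibody genes followed the B cell genes. Of 7 measured heavy chain constant regions, chosen for description after their values were seen, 6 were higher: Ighm had 260 and 1138 counts, Ighd 9 and 140, Ighg2b 144 and 1230, Ighg2c 99 and 801, Ighg3 4 and 139, and Igha 107 and 293. Ighg1 had 175 and 69 counts, a log2 ratio of -0.93. Of 103 variable segments past the minimum 36 were higher, 19 lower and 48 neither, and their sum was 820 CPM in WT and 1365 CPM in the labelled library. Reads can be divided among similar segments, so no single segment is named. Plasma cell genes had smaller ratios, with 3 of 12 higher (Ighm, Mzb1 and Igha), 0 lower and a median of 0.47.

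Genes of lymphoid follicles were partly higher. Of 13 measured genes of germinal centres and follicular stroma 7 were higher and 0 lower, with a median of 1.01, which was 0.19 among members with at least 200 counts. Among them were the follicle chemokine gene Cxcl13 (92 and 192 counts), the lymphotoxin gene Ltb (71 and 145), the homing receptor gene Ccr7 (16 and 62), and Glycam1 of high endothelial venules (0 and 62). Bcl6, the regulator of germinal centre B cells, did not differ by the size rule (354 and 324 counts). Of 13 measured T cell genes 0 were higher and 0 lower by the size rule, though 11 lay above 0, with a median of 0.27. The surface receptor gene Cd5 (33 and 69 counts, 2.43-fold, interval 1.58 to 3.79) and the co-receptor gene Cd4 (209 and 302 counts, 1.68-fold, interval 1.40 to 2.01) differed beyond counting error, while the receptor subunit gene Cd3e had 93 and 85 counts. Of 8 class II genes the 2 higher were H2-Oa (1.52) and H2-Ob (1.64), which B cells express.

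In the AOM/DSS pair the order was turned round. B cell genes had a median of -2.26 under the label, 14 of 16 lower and 0 higher, with Cd79b at 322 counts in WT and 56 in the labelled library. The summed list over the 4 libraries was 117 CPM (WT) and 290 CPM (labelled) untreated, and 364 CPM (WT) and 118 CPM (labelled) after AOM/DSS. Lymphoid tissue caught in the sample and the labelled genotype cannot be told apart in either pair.

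**Figure D3:**
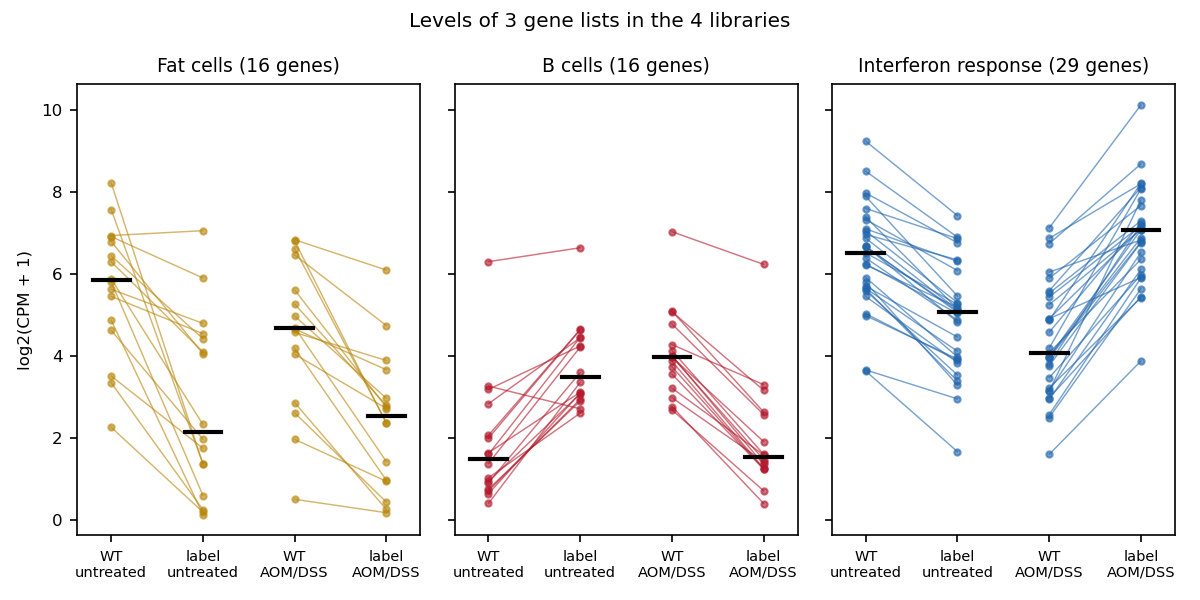
Level of each measured gene, as log2(CPM + 1), of the fat cell (16 genes), B cell (16) and interferon response (29) lists in the untreated WT, untreated labelled Card9-/-, WT AOM/DSS and labelled AOM/DSS libraries; each line joins 1 gene within a pair and black bars are medians over genes. The medians of the fat genes are lower under the label in both pairs, while those of the B cell and interferon genes reverse between the pairs.

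Interferon response genes were lower in the labelled library as a group. Of 29 measured 0 were higher and 25 lower, with a median of -1.56, and the summed level was 3526 CPM in WT and 1239 CPM in the labelled library. Irf7, the factor that amplifies the response, had 600 and 170 CPM (3.53-fold lower, interval 3.41 to 3.67), and Oas3, a sensor of double-stranded RNA, 236 and 42.9 CPM (5.49-fold lower, interval 5.12 to 5.89). Isg15, a ubiquitin-like modifier, had 101 and 27.3 CPM, and Usp18, which removes it from proteins, 48.5 and 9.44 CPM. The RNA-binding proteins Ifit1 and Ifit3 had 2916 and 733 counts, and 1188 and 229. The 4 members within the size rule, Stat2 (-0.79), Parp14 (-0.74), Mx1 (-0.70) and Ifih1 (-0.62), lay below 0 as well.

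Many promoters of this group carry interferon-stimulated response elements, and the 4 printed below, of genes lower in the labelled library, show the element where it was found. They are RefSeq sequences (GRCm38.p6) from 250 bases before to 50 after the gene's start, read 5′ to 3′ on the gene's strand. Capitals mark matches to GAAANNGAAA or, on the other strand, TTTCNNTTTC. They lie at chr5:120777610-120777909 (Oas3, minus strand), chr19:34583279-34583578 (Ifit3, plus), chr4:156200769-156201068 (Isg15, minus) and chr19:34640639-34640938 (Ifit1, plus).
Oas3: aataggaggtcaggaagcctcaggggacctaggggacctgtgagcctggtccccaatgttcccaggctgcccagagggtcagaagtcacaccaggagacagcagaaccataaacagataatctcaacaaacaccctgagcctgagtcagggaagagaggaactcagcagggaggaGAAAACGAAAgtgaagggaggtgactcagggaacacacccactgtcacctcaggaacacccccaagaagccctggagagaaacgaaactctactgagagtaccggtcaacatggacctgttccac
Ifit3: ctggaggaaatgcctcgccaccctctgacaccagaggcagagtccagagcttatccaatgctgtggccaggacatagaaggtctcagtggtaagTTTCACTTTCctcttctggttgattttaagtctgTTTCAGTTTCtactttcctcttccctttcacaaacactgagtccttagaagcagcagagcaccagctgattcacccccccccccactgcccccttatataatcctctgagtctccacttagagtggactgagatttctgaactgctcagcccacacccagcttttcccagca
Isg15: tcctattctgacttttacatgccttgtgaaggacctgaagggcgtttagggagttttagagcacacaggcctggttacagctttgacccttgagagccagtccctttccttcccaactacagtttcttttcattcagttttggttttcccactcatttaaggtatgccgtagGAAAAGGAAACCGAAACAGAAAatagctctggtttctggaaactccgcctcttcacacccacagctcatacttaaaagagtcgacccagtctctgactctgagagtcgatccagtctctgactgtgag
Ifit1: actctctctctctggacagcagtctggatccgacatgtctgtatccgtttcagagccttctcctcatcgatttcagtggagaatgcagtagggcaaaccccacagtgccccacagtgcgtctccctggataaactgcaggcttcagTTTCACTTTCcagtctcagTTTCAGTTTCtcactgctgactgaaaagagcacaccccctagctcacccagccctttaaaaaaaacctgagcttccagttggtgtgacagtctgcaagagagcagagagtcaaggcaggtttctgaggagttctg
The matches began at position -75 from the start in Oas3, -156 and -122 in Ifit3, -104 and -85 in Ifit1, and -78, -72 and -66 in Isg15, where the 3 matches overlap in 1 run. Of the 29 genes 19 had a promoter in the table, and 11 of these (57.9%) held a match. Beside this stood 3.82% of the 10149 genes past the count minimum that had a promoter, and 3.99% of all 27025 genes that had one. A gene counted when any of its promoters held a match. Irf7, Ifi44 and Ifit2, all lower, had none in this window, which says only that these letters do not occur there. With this list set aside, 6.83% of the 293 genes called lower that had a promoter held a match. The share was 2.35% of the 340 genes called higher that had one.

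Genes driven mainly by interferon gamma did not go along as a group in the untreated pair, though some members were lower. Of 19 measured interferon-induced GTPases and related genes 2 were higher, Nos2 and the class II activator Ciita (293 and 607 counts), and 3 lower, Gbp6 (641 and 153), Gbp3 (1379 and 438) and Ido1 (167 and 42), with a median of -0.13. Cxcl9 (66 and 65 counts) and Cxcl10 (91 and 92) were level. The 12 class I and immunoproteasome genes had a median of -0.20 and 0 past the size rule. In this promoter window 9 of 11 GTPase list members in the table held the same motif. After AOM/DSS 18 of the 19 GTPase list genes were higher under the label and 0 lower, with a median of 4.06. The class I and immunoproteasome list had 10 of 12 genes higher there and 0 lower, with a median of 1.42.

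After AOM/DSS the interferon response was higher under the label, by a median of 2.52, with 28 of 29 genes higher and 0 lower. Oas3 had 497 counts in WT and 4743 in the labelled library, Usp18 had 170 and 7004, and Isg15 had 283 and 4608. The list was thus high in untreated WT (3526 CPM) and in the AOM/DSS labelled library (5070 CPM), and low in the untreated labelled library (1239 CPM) and AOM/DSS WT (922 CPM). B cell genes were low wherever these genes were high. Their part in the difference was not tested.

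**Figure D4:**
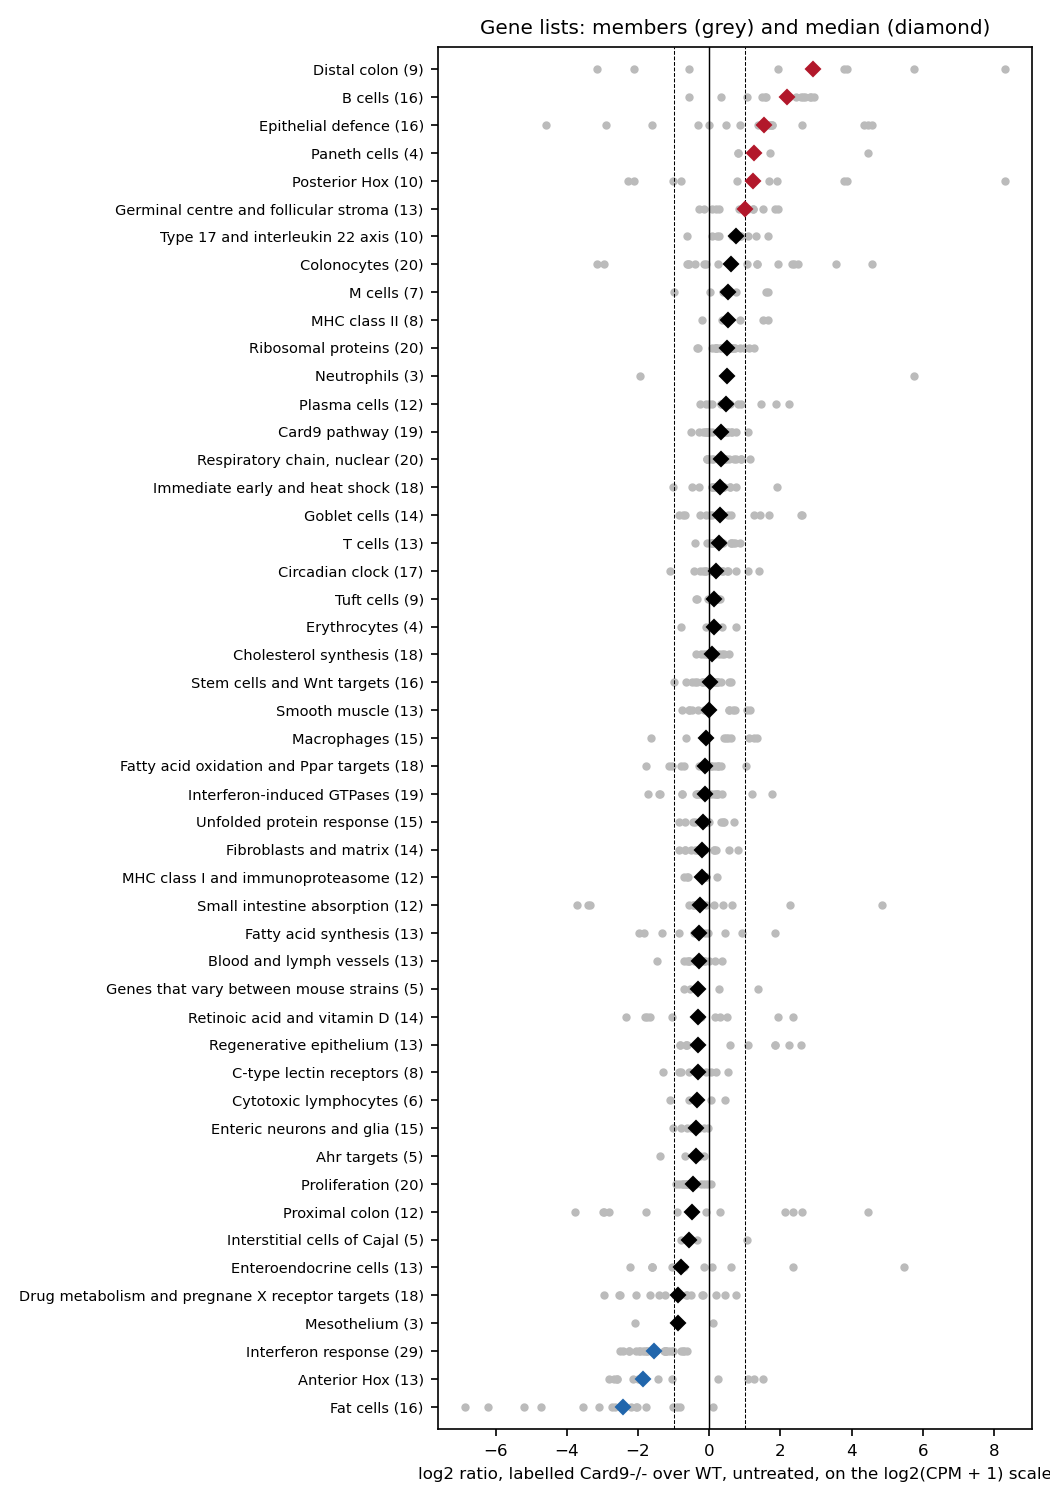
Log2 ratio of the untreated library labelled Card9-/- over WT (x axis, log2(CPM + 1) scale) for each gene list with 3 or more measured members (y axis, number measured in brackets); grey points are members, diamonds medians, red or blue where the median reached 1 or -1, and dashed lines mark the size rule. Distal colon and B cell genes stand at the upper end, interferon response, anterior Hox and fat cell genes at the lower end, and most lists lie between the dashed lines.

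Several lists had 0 members past the size rule in either direction. Among these were stem cell and Wnt target genes (16 measured, median 0.04), tuft cell genes (9, median 0.14), cholesterol synthesis (18, median 0.07), the unfolded protein response (15, median -0.18) and proliferation genes (20, median -0.47). Of the proliferation genes 19 of 20 were below 0. Of 15 macrophage genes 3 were higher, Cd14 (555 and 1255 counts), Ly6c2 (217 and 475) and Aif1 (76 and 169), and 1 lower, the scavenger receptor gene Cd163 (422 and 102), with a median of -0.08. Of 13 genes of regenerating epithelium 5 were higher, Anxa3 (2.59), Il1rn (2.25), Krt17 (1.85), Clu (1.84) and Anxa1 (1.09), and 0 lower, while the median was -0.31, or 0.30 without the count minimum.

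Genes near Card9 on chromosome 2 were compared with the rest, because a targeted allele is bred together with the genome beside it. Within 5 Mb on either side, 144 genes were measured, and 3.47% of them were past the size rule beside 7.87% of all others, with medians of 0.01 and -0.01. The 2 higher were Il1rn, the interleukin 1 receptor antagonist (274 and 1201 counts), and Ccbl1, a kynurenine aminotransferase (453 and 1309). The 3 lower were Hmcn2, a matrix protein (9866 and 3834 counts), Vav2, an exchange factor (1276 and 473), and Dbh, the enzyme that makes noradrenaline (104 and 31).

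The ratio also followed transcript length. Over 13149 protein-coding genes in 10 bins of length, the median log2 ratio was 0.27 in the shortest (216 to 1486 bases) and -0.14 in the longest (6874 to 123179 bases). Higher genes made up 8.82% of the shortest bin and 1.67% of the longest, while lower genes made up 3.34% and 3.80%. Among lists of short transcripts, ribosomal protein genes had a median of 0.51 (2 of 20 higher, 0 lower), or 0.27 once each bin's median was subtracted. That subtraction left 531 genes higher and 513 lower. It left the fat cell median at -2.38, the interferon response at -1.59, B cells at 2.20 and anterior Hox at -1.84. For the AOM/DSS pair the medians by length ran the other way, from -0.20 in the shortest bin to 0.07 in the longest.

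**Figure D5:**
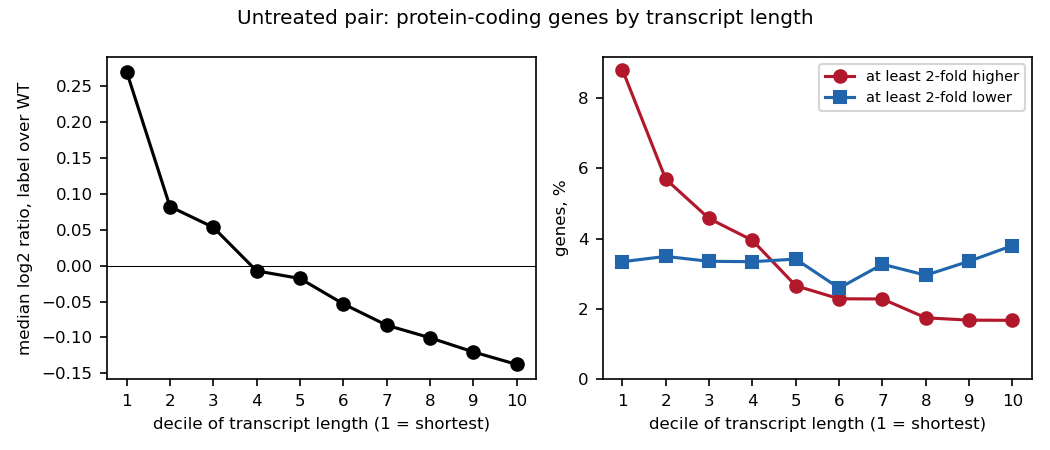
Protein-coding genes of the untreated pair in 10 bins of transcript length (x axis, bin 1 the shortest): left, the median log2 ratio of the labelled library over WT; right, the percentage of genes at least 2-fold higher (red) and lower (blue). The median falls from 0.27 to -0.14 and the percentage higher from 8.82 to 1.67, while the percentage lower stays between 2.59 and 3.80.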

How the data were processed

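RNA of mouse colon was made into 4 libraries, 1 per group, with an Ion Proton kit, per the labels' protocols. The authors deposited raw, whole-number counts, 1 row per gene symbol. Per the submitters' processing notes, reads were placed on GRCm38 (mm10). For the aligner, counting program, annotation and strand setting, a name is not given in the sources used here. In 27 rows the symbol had become a date and the gene could not be named.

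CPM were computed with edgeR 4.0.16 under R 4.3.3, with TMM factors of 0.9915 in untreated WT and 0.9311 in the untreated labelled library, computed over all 4 libraries. Ratios used a pseudocount of 1 CPM, which understates differences of low genes. Genes needed 50 counts in the higher library, and 2-fold was the size rule. Folds are CPM ratios with exact Clopper-Pearson 95% intervals, conditional on the sum of both counts (SciPy 1.17.1). The protocols name no molecular identifiers, so reads are not independent molecules and the intervals cover counting error only. Against 0 counts, a floor of 3 counts in that library gives a lower bound. There are no p-values, since each group has 1 library. The calculation was tested on simulated data. Positions and promoters came from RefSeq, matched by symbol or unique synonym for 14980 (97.6%) of the genes, and transcript lengths from GENCODE M21.

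The genes, 54 lists and rules were chosen with earlier results of these data known, and 10 further lists (the 4 Hox clusters, gut position factors, pan-epithelial genes, Cyp2c, Cyp2d, carbonic anhydrases and heavy chain constant regions) after values of this pair were seen. Lists can share genes. The rule named Card9 and its pathway, the 15 highest and 15 lowest ratios (without receptor segments, mitochondrial, predicted and pseudogenes), up to 4 members per list by ratio, all members of lists with a median of at least 0.5 or of other tissues, and 5 genes per direction with 1000 CPM or more. Hoxa6, Hoxa11os, Xist, Aqp4, Cyp2e1, Ccbl1, Hmcn2, Dbh, Vav2 and further members of the lists were named outside it. Some genes within it are not reported here. In the goblet cell list the older symbol Clca3 stands for the secreted goblet cell protein.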

Additional observations from a re-analysis of the deposited data

Results flagged for a closer look

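The interferon response list had a median log2 ratio of -1.56 in the untreated pair (0 of 29 genes higher, 25 lower) and of 2.52 in the AOM/DSS pair (28 higher, 0 lower). It is named here because the sign of the label ratio turned round between untreated and treated tissue. The B cell list turned round in the other direction, with a median of 2.19 untreated (14 of 16 higher, 0 lower) and -2.26 after AOM/DSS (0 higher, 14 lower). Each pair has 1 library per group, so neither difference between the pairs was tested.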

How the results depend on the processing

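A pseudocount of 5 CPM left 372 genes higher and 248 lower, beside 685 and 517 at 1 CPM. By its construction it takes genes of low level out of the size rule. Under the other 10 settings tried, the higher genes numbered 467 to 781 and the lower 366 to 615. These settings were the size factors of DESeq2 1.42.0, library totals without any factor, upper-quartile factors, TMM over the 2 untreated libraries, a pseudocount of 0.5 CPM, at least 200 counts, no count minimum, libraries thinned to the smaller total, genes above 1% of a library left out, and subtraction of the median of each length bin, which was added after the data were seen. The fold of Card9 was recomputed under the 6 settings that change scaling or reads, and ran from 1.71 to 1.93. The 10 lists with a median of at least 1 in size kept their sign in all 11 settings, though 5 of the 10 fell under 1 in size with a pseudocount of 5 CPM and 5 without a count minimum. The germinal centre median also fell under 1 with DESeq2 (0.97), upper-quartile (0.99) and total (0.93) scaling, with at least 200 counts (0.19) and with the length subtraction (0.74). With a pseudocount of 5 CPM the anterior Hox median was -0.74 and the B cell median 1.12. Nearer 0, the medians of cholesterol synthesis, macrophage, mesothelium, neutrophil, smooth muscle, stem cell and regenerating epithelium genes, among others, changed sign under 1 or more settings. All 37 genes named for extreme ratios or high levels kept their sign and stayed past the size rule. Scaling by library totals turned the split of higher and lower genes from 57.0% to 48.1% higher, and the length subtraction gave 50.9%. No paired analysis was possible because each group has 1 library. Depth limits genes under 50 counts, Il17a and Il22 among them, and the spread between mice of a genotype cannot be estimated here.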

Other observations

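Genes of vitamin A and vitamin D handling lay on either side in the untreated pair. Of 14 measured 5 were lower, among them the calcium-binding protein gene S100g (3194 counts in WT and 528 in the labelled library), the intestinal homeobox factor Isx (6103 and 1506) and the retinaldehyde dehydrogenase genes Aldh1a1 (6943 and 1879) and Aldh1a3 (453 and 100). The 2 higher were the retinol transporter gene Stra6 (13 and 147) and the calcium channel gene Trpv6 (9 and 92). Lipid synthesis was mixed in the same way: of 13 fatty acid synthesis genes 3 were lower, the desaturase gene Scd1 (5001 and 1081), the malic enzyme gene Me1 (707 and 157) and Acacb (2225 and 750), and 1 was higher, the desaturase gene Fads2 (1752 and 5545). Scd1 and Me1 are also made by fat cells, whose list was lower, and the part of fat in these values was not tested.

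Of 17 clock genes 2 were higher, among them Per2 (404 and 953), and 1 lower, Nfil3 (320 and 118), with a median of 0.20. Of 18 immediate early and heat shock genes 1 was higher, Hspb1 (117 and 436), and 1 lower, Egr1 (533 and 218). The mast cell protease gene Mcpt1 had 7 and 81 counts and Kit, which mast cells share with interstitial cells of Cajal, 3857 and 1929. They were the 2 measured members of the mast cell list. The lymphatic factor Prox1 had 348 and 95 counts, whereas the other 12 vessel genes were within the size rule. Of 1233 pseudogenes past the minimum 9.08% were higher, beside 3.53% of 13177 protein-coding genes.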
